A study of Rattus norvegicus with 19 samples.

Results

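The transcripts described here were found in mast cells of newborn rat skin and were at least 10-fold lower in mast cells of the bone marrow, hippocampus and hypothalamus of the same age. They were chosen on levels in CPM, an estimated count divided by the library's total and multiplied by 1000000. A member had a mean of at least 5 CPM in skin at postnatal day 2 (PN2) and at least 10 times the mean of each of the other 3 tissues at PN2. Of 29107 transcripts in the deposited table, 47 met this rule, out of 10709 with a skin mean of at least 5 CPM.

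Mast cells were sorted from wild-type rat pups that had been perfused with phosphate-buffered saline, by high CD45, no CD11b and surface FcεRI after a Percoll gradient. All groups share that genotype and handling. The PN2 pups gave 5 skin, 4 bone marrow, 4 hippocampus and 2 hypothalamus libraries, and the PN7 pups gave 3 hippocampus libraries and 1 hypothalamus library without a replicate. The labels describe each library as an independent replicate of cells pooled from 6 animals, so single pups cannot be told apart.

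Mast cells are tissue immune cells that are activated through IgE bound to FcεRI and release stored mediators such as histamine and proteases. Those of skin belong to the connective tissue type, with granules rich in heparin and chymase, tryptase or carboxypeptidase, and lie near vessels, nerves and hair follicles. Bone marrow holds mast cell progenitors that have yet to fill their granules, and the mast cells of the newborn rat brain lie mainly in the meninges and along vessels near the hippocampus. The deposited rows carry Ensembl transcript identifiers without gene names, and 0 of the 47 members could be paired with a name. The function of the members is therefore not given, and defining markers of mast cells, keratinocytes, fibroblasts, melanocytes or other skin cells could not be read. Members are numbered below by their mean level in skin, from 1 for the highest to 47 for the lowest. In bulk samples, fewer cells that hold a transcript and less of it per cell cannot be told apart.

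Total estimated counts ran from 11704985 to 26394623 in skin, 16196856 to 22563833 in bone marrow and 19935250 to 22967152 in hippocampus at PN2. They were 5495252 and 5607810 in hypothalamus at PN2, 10329777 to 12870442 in hippocampus at PN7 and 9792422 in the hypothalamus library of PN7. A value of 0 over all libraries of a group allows up to 0.0372 CPM for bone marrow and 0.0345 CPM for hippocampus at PN2, but up to 0.270 CPM for hypothalamus at PN2 and 0.306 CPM for its PN7 library. These limits, 3 counts over the group's total, cover counting error only.

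The members were uneven in level. Together they held 8860.3 ± 1071 CPM in skin (SD, n = 5), of which members 1 to 4 held 85.0%. Skin means ran from 5.13 to 2466 CPM with a median of 12.02 CPM. In the other PN2 groups the members' sum was 86.8 ± 7.27 CPM for bone marrow (SD, n = 4), 229 ± 84.8 CPM for hippocampus (SD, n = 4) and 326 ± 204 CPM for hypothalamus (SD, n = 2). These PN2 sums were set by the rule and are given as a description. At PN7, which the rule did not use, the sum was 1251 ± 103 CPM for hippocampus (SD, n = 3) and 2613 CPM for the hypothalamus library.

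**Figure D1:**
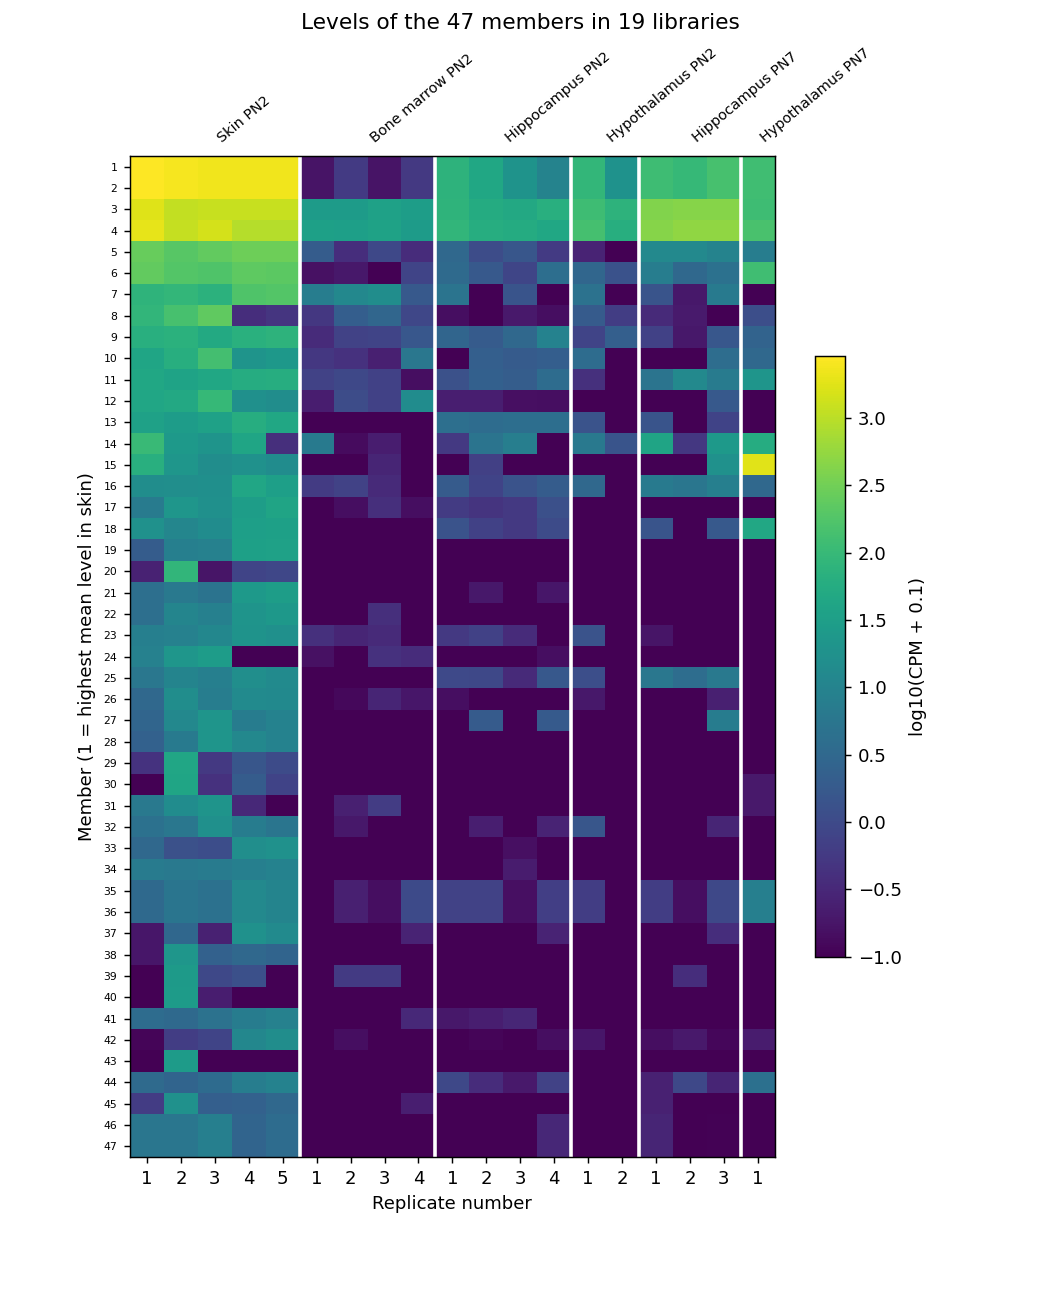
Level of each of the 47 members (rows, by skin mean) in each of the 19 libraries (columns, by group and replicate number), as log10 of CPM plus 0.1. The rows of members 1 to 4 are bright in skin and visible in all brain libraries, 8 rows are bright in skin replicate 2 alone, and member 15 is brightest in the hypothalamus library of PN7.

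The 2 most abundant members were a pair with the same values in every library. Member 1 (ENSRNOT00000049667.3) and member 2 (ENSRNOT00000081924.1) held 2880.5, 2505, 2289, 2335 and 2321 CPM each in skin replicates 1 to 5. In bone marrow they held 0.0718, 0.480, 0.0714 and 0.443 CPM. All bone marrow libraries were thus below 1 CPM, while the brain libraries were not. In hippocampus at PN2 the pair held 76.8, 45.3, 19.6 and 9.92 CPM in replicates 1 to 4, and in hypothalamus at PN2 89.8 and 18.5 CPM. At PN7 it held 121, 95.5 and 148 CPM in hippocampus and 122 CPM in hypothalamus. The pair was steady over skin, with an SD of 246 CPM around 2466 CPM (n = 5), and lay at 4.92% of the skin mean in hippocampus and 4.95% in hypothalamus at PN7.

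Members 3 (ENSRNOT00000079106.1) and 4 (ENSRNOT00000038879.5) were the most abundant in hippocampus at PN7. Member 3 held 1760.1, 1107, 1204, 1228 and 1239.6 CPM in skin replicates 1 to 5, and member 4 held 1987, 1183, 1478, 914 and 902 CPM. Both were present in every library of the series. The bone marrow libraries ran from 27.9 to 35.7 CPM for member 3 and from 28.2 to 36.6 CPM for member 4. In hippocampus at PN2, member 3 held 80.4, 54.6, 49.7 and 65.9 CPM and member 4 held 86.1, 61.1, 54.9 and 46.1 CPM. Their levels at PN7 did not overlap these: member 3 held 415, 439 and 441 CPM and member 4 held 451, 522 and 529 CPM in hippocampus. This is 6.89 times and 8.07 times the PN2 mean, a ratio that the cap on the PN2 level favours and that was not tested. At PN7 the hippocampus means were 33.0% and 38.7% of the skin mean, so both transcripts were well above 10% of skin there. In hypothalamus, member 3 held 121 and 76.4 CPM at PN2 and 118 CPM at PN7, and member 4 held 139 and 62.6 CPM at PN2 and 149 CPM at PN7.

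The members just inside the limits of the rule were close to transcripts just outside. Member 46 (ENSRNOT00000057880.4) and member 47 held the same values and shared the lowest skin mean at 5.13 CPM, and ENSRNOT00000077070.2 missed the minimum at 4.93 CPM. ENSRNOT00000088387.1, member 14, had the lowest ratio to another tissue at 10.03 times hypothalamus at PN2, and ENSRNOT00000079777.1 missed the limit at 9.05 times hippocampus at PN2. Of the 47 members, 18 were at least 100-fold above the highest of the other 3 PN2 tissues or had 0 counts there.

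The next highest tissue at PN2 was hippocampus for 19 members, bone marrow for 10 and hypothalamus for 10, and 8 members (19, 20, 28, 29, 30, 38, 40 and 43) had 0 counts in all 10 of these libraries. In bone marrow 15 members had 0 counts, in hippocampus at PN2 12 and in hypothalamus at PN2 26. The depth of the hypothalamus libraries limits what the last number says: for these 26 members, skin was at least 18.98-fold to 165-fold higher than hypothalamus at PN2, where the low bounds belong to the less abundant members. Outside skin, 7 members (all of the 8 except member 30) had 0 counts in every one of the 14 libraries. Among the 10709 transcripts with a skin mean of at least 5 CPM, 0.0747% had 0 counts in the 10 libraries and 0.0654% in the 14. The rule admits each of these transcripts, so these counts only describe the list. The skin level of members 20, 29, 30, 38, 40 and 43 rested on skin replicate 2, as described below.

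Member 19 was the most abundant of those 7. It held 1.92, 8.46, 9.13, 34.6 and 35.4 CPM in skin replicates 1 to 5, which puts skin at least 481-fold above bone marrow, 520-fold above hippocampus and 66.3-fold above hypothalamus at PN2. Its level differed among the skin libraries themselves, with replicates 4 and 5 above the other 3.

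Uneven levels within skin were common among the members. The coefficient of variation over the 5 skin libraries had a median of 60.6% for the members, against 16.2% for all 10709 transcripts with a skin mean of at least 5 CPM, whose median skin level was higher, at 28.1 CPM. Of the members, 19 of 47 reached 5 CPM in every skin library, where 90.2% of the 10709 did. Only 8 members (1, 2, 3, 5, 6, 9, 11 and 34) stayed within 2-fold over the 5 libraries, where 79.8% of the 10709 did. A mean can pass the rule through 1 library, and the part of the lower level in this spread was not tested.

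The steady members were mostly among the most abundant, and only member 34, with a skin mean of 7.70 CPM, lay below the members' median. Member 5 held 261, 197, 240.4, 298 and 305 CPM in skin replicates 1 to 5, member 9 held 66.0, 70.2, 51.3, 67.3 and 75.4 CPM, and member 34 held 7.03, 6.37, 7.16, 8.47 and 9.45 CPM. Member 5 was at most 3.12 CPM in every bone marrow, hippocampus and hypothalamus library of PN2 and held at most 12.7 CPM in the PN7 libraries. Member 34 was at most 0.115 CPM in any library outside skin.

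**Figure D2:**
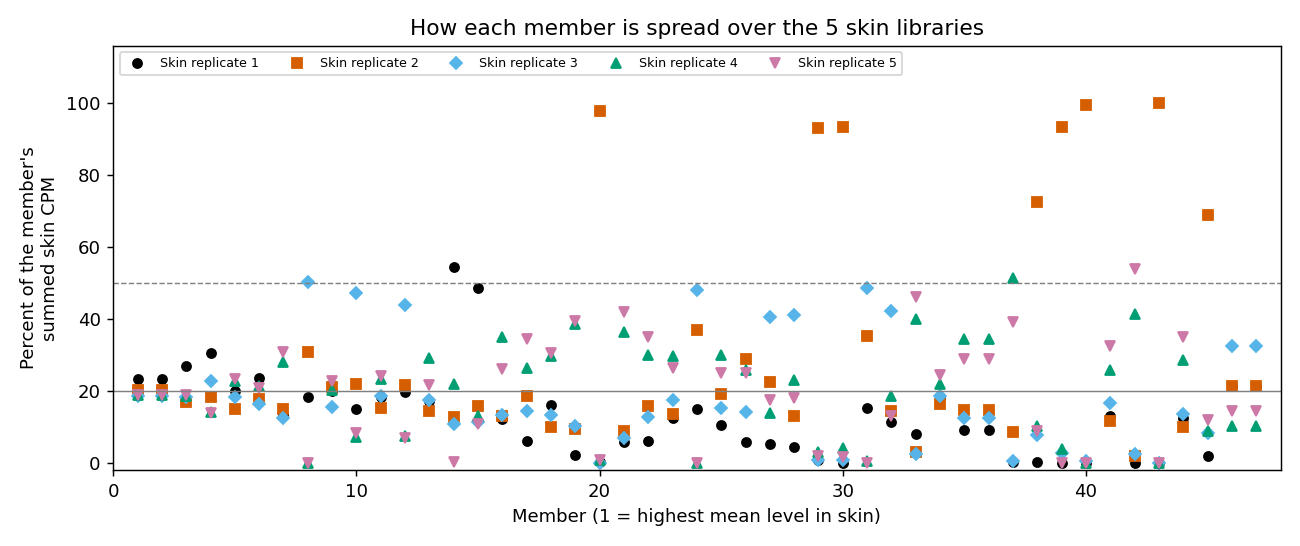
For each of the 47 members (x axis, by skin mean), the percent of its summed skin CPM held by each of the 5 skin libraries (points). The solid line marks an equal share of 20% and the dashed line 50%; 8 members have a point for replicate 2 above 50%, the highest at 100%.

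A set of 8 members rested on skin replicate 2. In members 20, 29, 30, 38, 39, 40, 43 and 45 this library held more than 50% of the summed skin CPM, from 68.9% to 100%. Replicate 2 held 17.8 to 86.4 CPM of each, and no other skin library held more than 3.08 CPM of any. In the whole table only 9 transcripts with a skin mean of at least 5 CPM had more than 50% in replicate 2, or 0.084%, and 8 of them were members. Member 20 held 0.171, 86.4, 0.0762, 0.714 and 0.796 CPM in skin replicates 1 to 5. Member 43 held 27.5 CPM in replicate 2, from 644 counts, and 0 in all the other 18 libraries. Without skin replicate 2 none of the 8 met the rule, and 41 transcripts did. The level of these 8 is therefore that of 1 library of pooled cells, and their fold over other tissues has no replicate check. Which cells of that pool they came from was not tested.

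Another 4 members had 1 dominant skin library each. Replicate 1 held more than 50% of member 14, replicate 3 of member 8, replicate 4 of member 37 and replicate 5 of member 42. With these, 12 of 47 members, or 25.5%, had 1 skin library above 50%, against 0.794% of the 10709 transcripts. With the rule applied again without skin replicate 4, skin replicate 5 or hypothalamus replicate 1 of PN2, 20, 21 and 21 transcripts had 1 skin library above 50%. The selection for a high skin mean over low means elsewhere admits such transcripts, so the difference is a description of the list.

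Skin replicates 4 and 5 differed together from replicates 1 to 3. Both were above all of the other 3 for 20 of 47 members, where 34.4% of the 10709 transcripts did the same, and both were below them for 8 of 47, where 15.9% did. These counts lie near those of other transcripts. Both libraries were at least 2-fold above the highest of replicates 1 to 3 for 6 members (19, 21, 33, 37, 42 and 44). Of the 10709, 0.887% did the same. Both were at most 50% of the lowest for 4 members (8, 12, 24 and 31), where 1.2% of the 10709 were. The rule used these skin values and admits transcripts whose mean rests on few libraries. The members also had a lower median skin level (12.02 against 28.1 CPM), so these larger gaps only describe the list. Member 33 held 3.16, 1.20, 1.03, 15.7 and 18.1 CPM in replicates 1 to 5. Member 42 held 0.0168, 0.540, 0.729, 11.6 and 15.04 CPM.

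In the opposite set of 4, members 8, 24 and 31 were below 1 CPM or at 0 in replicates 4 and 5. Member 8 held 86.7, 145, 236, 0.276 and 0.379 CPM in skin replicates 1 to 5. Member 24 held 8.97, 22.2 and 28.97 CPM in replicates 1 to 3 and 0 in replicates 4 and 5. Member 31 held 6.34, 14.7, 20.3, 0.230 and 0 CPM. Member 12, the remaining one, held 44.0, 48.5, 98.0, 17.0 and 15.5 CPM, and in bone marrow it held 14.9 CPM in replicate 4 against 0.123, 1.01 and 0.619 CPM in replicates 1 to 3. The labels name no batch for these libraries. Across the 20521 transcripts kept by the filter on low counts, the deviation of skin replicate 4 from its group mean in log2 CPM correlated with that of bone marrow replicate 4 (r = 0.164) and of hippocampus replicate 4 of PN2 (r = 0.208), and that of skin replicate 5 with the same libraries (r = 0.155 and 0.208). Both skin libraries also correlated with hypothalamus replicate 2 of PN2 (r = 0.140 and 0.143). That group has 2 libraries, whose deviations mirror each other, so the values for its replicate 1 are r = -0.140 and -0.143. They therefore do not show whether the shared deviation reaches libraries of other tissues beyond those numbered 4. The part of this shared deviation in the members' values was not tested.

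Outside skin the members in the libraries that the rule did not use show how far the pattern holds at PN7. In hippocampus at PN7, 39 of 47 members were at or below 10% of the skin mean, and 15 had 0 counts. In the hypothalamus library of PN7, 37 of 47 were at or below 10%, and 27 had 0 counts, at a lower depth. The rule used the skin mean and capped the PN2 level of both regions, so these counts are a description. Their difference from other transcripts was not tested. Among all 10709 transcripts with a skin mean of at least 5 CPM, 1.16% and 2.53% were at or below 10% of skin in hippocampus and hypothalamus at PN7. Over both groups, 34 members stayed at or below 10% of skin, 13 were above it in at least 1 group, and 5 of these were above it in both. The name given to the set is transcripts found in skin mast cells only. On group means and at the limit of the rule, it holds for 34 of the 47. Even so it does not hold for members 3, 4, 6, 11, 14, 15, 16, 18, 25, 27, 35, 36 and 44. Read as 0 counts in all 14 libraries outside skin, the name holds for only 7 members. Members 1 and 2, among the 34, each held 121 CPM in hippocampus and 122 CPM in hypothalamus at PN7. The 34 include the 8 members that rested on skin replicate 2, whose skin level has no replicate check. They also include members 8, 37 and 42, each with 1 dominant skin library.

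**Figure D3:**
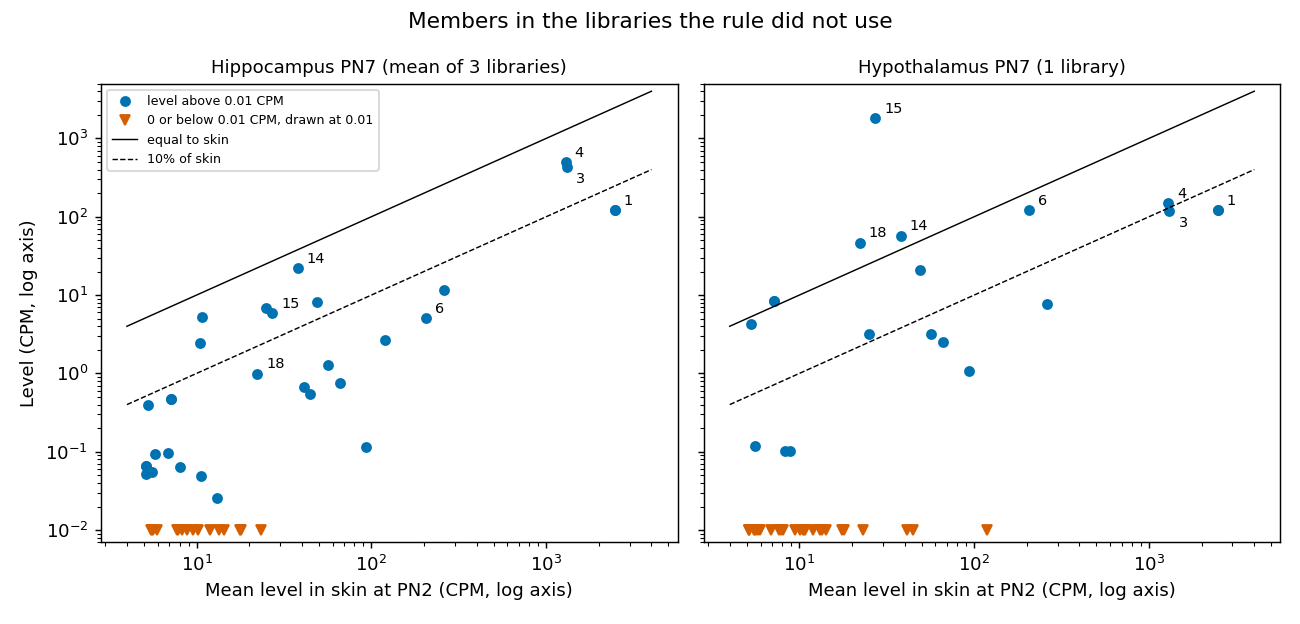
Level of each member at PN7 (y axis, CPM, log scale) against its mean in skin at PN2 (x axis, CPM, log scale), in hippocampus (left, mean of 3 libraries) and hypothalamus (right, 1 library). Triangles at 0.01 stand for values of 0 or below 0.01 CPM. No member lies above the line of equal levels in hippocampus, and 5 members do in hypothalamus, with member 15 at 1816 CPM.

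All hippocampus libraries of PN7 were above all those of PN2 for 8 members (1, 2, 3, 4, 5, 11, 16 and 25), beside 21% of the 10709 transcripts. They were below them for 3 members (9, 13 and 17), beside 18.6%. The rule capped the PN2 level, so these counts are given without a test. Member 13 held 4.15, 3.65, 4.06 and 4.05 CPM at PN2 and 1.32, 0 and 0.678 CPM at PN7. The hypothalamus library of PN7 was above both PN2 libraries for 17 members, beside 39% of the 10709, and below both for 0 members, beside 21.1%. The 26 members at 0 in both PN2 libraries could not be lower.

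Hippocampus and hypothalamus at PN7 are the only pair of groups that the rule left out on both sides, and they were tested against each other across all transcripts with edgeR's quasi-likelihood test. All 47 members were among the 20521 transcripts kept by the filter on low counts, which many of them passed through their skin level. Of the members, 3 were higher in hippocampus than in hypothalamus, 6.38% of them, beside 3.84% of all transcripts tested, and 3 were lower, beside 3.74%. Of the 47 members, 13 had 0 counts in all 4 libraries and could not be called, so these shares depend on members kept through skin and are not read against the background. With only the libraries of both groups in the fit, 22 members passed the filter, of which 3 were higher and 1 was lower in hippocampus, beside 934 higher and 409 lower of 16416 transcripts. Since hypothalamus is 1 library here, the test assumes that it varies as the other groups do.

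Member 15 (ENSRNOT00000040069.6) showed the largest difference of the 3 that were lower in hippocampus. It held 1816 CPM in the hypothalamus library of PN7, from 17782 estimated counts, and 0, 0 and 17.8 CPM in the hippocampus libraries of PN7. For hippocampus minus hypothalamus, edgeR gave a log2 fold change of -8.10 with an SE of 1.63 and an adjusted p of 0.00746. The size rests on hippocampus replicate 3: without it both hippocampus libraries are at 0, and hypothalamus is at least 14256-fold higher. The hypothalamus level was also 67.0 times the skin mean of this transcript, which held 65.9, 21.6, 15.5, 17.7 and 14.9 CPM in skin replicates 1 to 5. Both hypothalamus libraries of PN2 were at 0, and the highest bone marrow or hippocampus library of PN2 held 0.593 CPM. Member 15 made up 69.5% of the members' sum in the hypothalamus library of PN7, and the other 46 members summed to 797 CPM there. With only the 4 libraries of both groups in the fit, this difference did not pass (adjusted p = 0.115, edgeR), the highest of the alternatives, whose adjusted p went down to 7.55e-05.

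Member 6 (ENSRNOT00000031555.5, named here after its values were seen) and member 18 were the other 2. Member 6 held 122 CPM in the hypothalamus library of PN7 against 7.61, 3.09 and 4.45 CPM in hippocampus, a difference of -4.39 ± 0.67 on the log2 scale (SE; edgeR, adjusted p = 0.00106). In skin it held 246, 183, 169, 221 and 214 CPM, and at PN2 no library of the other tissues held more than 4.05 CPM. Member 18 held 46.8 CPM in that hypothalamus library against 1.32, 0 and 1.65 CPM in hippocampus, a difference of -5.36 ± 0.99 on the log2 scale (SE; edgeR, adjusted p = 0.00667). That library was also above the skin mean of member 18, 22.2 ± 10.6 CPM (SD, n = 5). With only the libraries of both groups in the fit, the adjusted p of member 18 was 0.102 (edgeR), in a range of 1.83e-05 to 0.102 over the alternatives. Members 14, 35 and 36 were also above their skin mean in the hypothalamus library of PN7, at 57.2, 8.42 and 8.42 CPM, but their difference from hippocampus did not pass the test (adjusted p of 0.848, 0.122 and 0.122, edgeR).

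The 3 members that were higher in hippocampus at PN7 were 3, 4 and 25. Members 3 and 4 divide shared reads between them, as described below, so their calls are not independent of each other. Member 3 was higher by 2.08 ± 0.33 on the log2 scale (SE; edgeR, adjusted p = 0.00131) and member 4 by 1.95 ± 0.51 (SE; edgeR, adjusted p = 0.0275), in both cases with all 3 hippocampus libraries above the hypothalamus library. Without hippocampus replicate 2 the adjusted p of member 4 was 0.0588 (edgeR), in a range of 0.00142 to 0.0588 over the alternatives. Member 25 held 5.75, 3.79 and 6.29 CPM in hippocampus at PN7 and 0 in the hypothalamus library, at least 17.2-fold higher in hippocampus (adjusted p = 0.0196, edgeR). In skin, member 25 held 5.66, 10.2, 8.22, 16.1 and 13.4 CPM, so its hippocampus mean at PN7 was 49.2% of the skin mean.

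**Figure D4:**
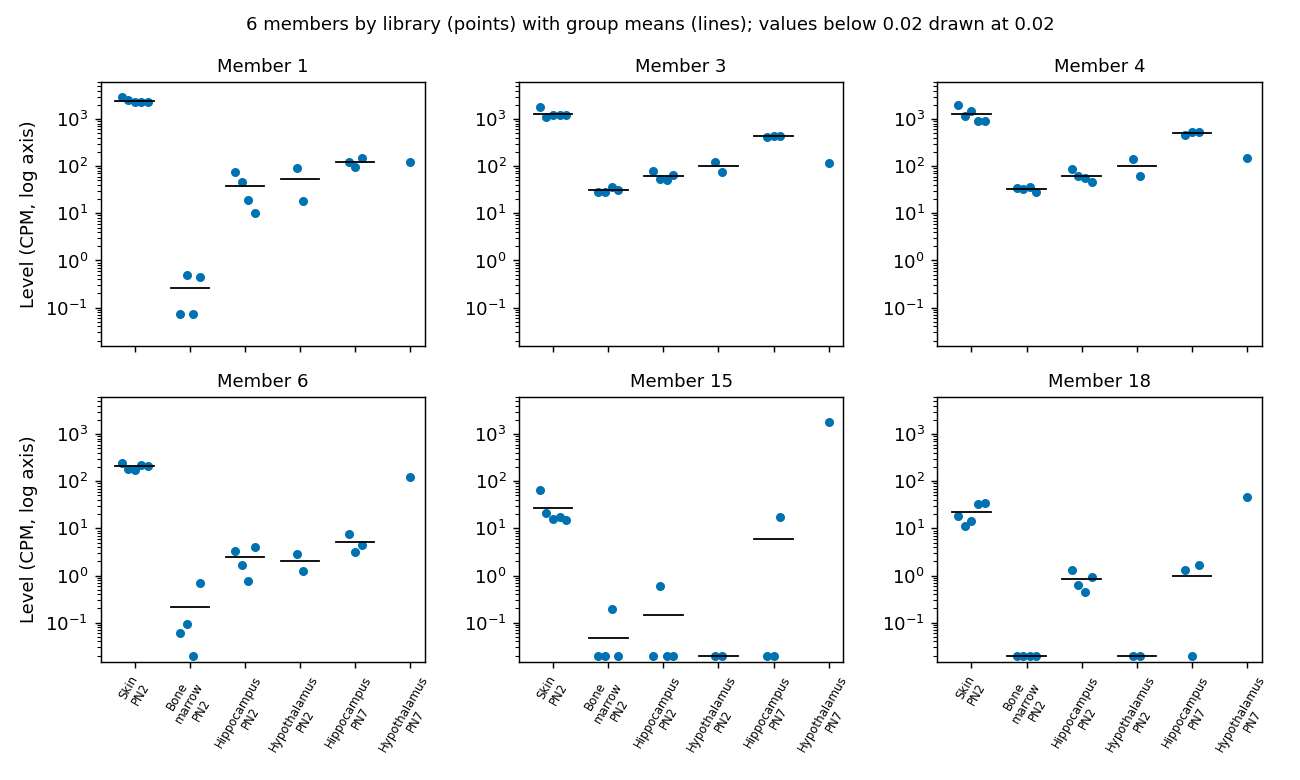
Level (y axis, CPM, log scale) of 6 members in each library (points) by tissue and age, with group means as lines; values below 0.02 CPM are drawn at 0.02. Members 3 and 4 are higher in hippocampus at PN7 than at PN2, and members 6, 15 and 18 are high in the hypothalamus library of PN7 and in skin.

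Members 3 and 4 shared their order over most groups: both were highest in skin, then in hippocampus at PN7, then in hypothalamus, then in hippocampus at PN2 and lowest in bone marrow. The PN2 ranges of hypothalamus and hippocampus overlapped for both, at 76.4 to 121 against 49.7 to 80.4 CPM for member 3, so these neighbours did not differ beyond their spread. Within skin their order reversed. Member 4 was above member 3 in replicates 1 to 3, at 1987, 1183 and 1478 against 1760.1, 1107 and 1204 CPM. In replicates 4 and 5 member 3 held 1228 and 1239.6 CPM and member 4 held 914 and 902 CPM. Both hold values that are not whole numbers, which the estimation gives where reads fit several transcripts. To the digits given, their estimated counts added up to a whole number in each library, such as 461.379 and 546.621 in bone marrow replicate 1. The estimation thus divided shared reads between these 2 members. Their common order over groups is not that of 2 independent transcripts, and their order within skin depends on that division.

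What the members share beyond the rule could be read only from the form of their values. A pair with identical values in all 19 libraries occurred 3 times among the members (1 and 2, 35 and 36, 46 and 47), or 12.8% of the members, beside 11.7% of the 10709 transcripts. Values were whole, to within 1e-06, in every library for 16 of 47 members, or 34.0%, beside 54.2% of the 10709. For the other 31 members, part of the reads was divided with other transcripts, so their level depends on how the estimation divided them. Member 14 is one: its values ran from 0.294 to 103 CPM in skin and were 39.9, 0.438 and 25.8 CPM in hippocampus at PN7.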

How the data were processed

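RNA from mast cells sorted from 4 tissues was sequenced in 19 libraries, made by SMART-Seq v4 cDNA synthesis and Nextera XT per the labels' protocols. The authors deposited 1 table of estimated counts per Ensembl transcript, which are not normalized between libraries. The submitters' processing notes name kallisto and Rnor_6.0. The kallisto version is not given in the sources consulted. The gene table used here holds Ensembl identifiers for 0 of 47357 genes, so no transcript was named and no sequence printed, and marker and pathway lists could not be applied. PCR without molecular identifiers means that limits from counts cover counting error only.

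Levels are plain CPM. The members and lists were chosen with earlier results of these data known. After rounding the estimated counts, the PN7 groups were compared in edgeR 4.0.16 and R 4.3.3 (TMM, filterByExpr over the 6 groups, all 19 libraries in 1 robust quasi-likelihood fit of group means). Adjusted p-values are Benjamini-Hochberg values over all transcripts kept, with calls below 0.05. The standard error is the log2 fold change divided by the square root of F. Since the labels do not separate animals within a pool, p-values measure the spread between pools. A fold against a group at 0 is a lower bound against 3 counts over that group.

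Identifiers are printed for at most 2 members with the highest level in skin, hippocampus at PN7 and hypothalamus at PN7, and for those next to each limit; 1 more was added after its values were seen. The alternatives were other scalings, limits, filters and fits (DESeq2 1.42.0, limma 3.58.1), a replicate block, thinning and each library left out. Tested on simulated counts of the PN7 comparison with 19467 transcripts, the fit recovered 8% of 2-fold, 48% of 4-fold, 80% of 8-fold and 74% of 16-fold changes, of 50 each, with 2 false calls. The changed transcripts were drawn from those with a mean of at least 5 CPM over all libraries. At PN7 the median member level was 0.0936 CPM in hippocampus and 0 in hypothalamus, so these rates do not describe most members.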

Additional observations from a re-analysis of the deposited data

Results flagged for a closer look

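In groups of 4 or 5 libraries, 1 library stood far from the others in 12 of 58 sets of values, 11 of them a member's skin values. Of these sets, 8 are the members that rested on skin replicate 2: it held 86.4 CPM of member 20, 44.2 CPM of member 29, 41.2 CPM of member 30, 21.7 CPM of member 38, 27.1 CPM of member 39, 28.2 CPM of member 40, 27.5 CPM of member 43 and 17.8 CPM of member 45, while the other 4 skin libraries held at most 3.08 CPM of any of them. These sets share the same 5 libraries and are not independent of each other. The outlier limit is set to pass about 1 in 20 sets by chance. That rate does not apply here, since the rule used the members' skin values and a mean can pass it through 1 library.

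Skin replicate 1, the shallowest skin library, stood apart in 3 sets. It held 1760.1 CPM of member 3, against 1107 to 1239.6 CPM in the others, 65.9 CPM of member 15, against 14.9 to 21.6 CPM, and 10711 CPM of all members together, against 8095 to 8711 CPM. Skin replicate 3 held 17.0 CPM of member 32, against 4.53 to 7.44 CPM in the others.

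For member 9, the PN7 libraries lay below all those of PN2 in hippocampus, while the 1 PN7 library lay above both of PN2 in hypothalamus. In hippocampus it held 2.80, 1.78, 3.06 and 9.45 CPM at PN2 and 0.622, 0.0936 and 1.55 CPM at PN7, and in hypothalamus it held 0.728 and 2.14 CPM at PN2 and 2.55 CPM at PN7. In hypothalamus the PN7 library was closer to the nearest PN2 library than the PN2 libraries were to each other. The difference between the regions was not tested.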

How the results depend on the processing

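The number of members followed the limits of the rule: it was 82 at a fold limit of 5, 33 at 20, 163 with a skin minimum of 1 CPM and 18 with one of 20 CPM. Added after seeing the data were the next 2 alternatives. With the lowest skin library in place of the skin mean for the fold limit, 29 members were left, of which 7 had 1 skin library above 50%. The 8 members with 0 counts in the other PN2 groups could not fail this limit, whatever their lowest skin library. Members 30, 40 and 43 were kept in this way with 0 CPM in their lowest skin library. With both PN7 groups also held to the fold limit, 34 members were left. Group medians gave 39 transcripts, 28 of them members, and leaving out the libraries numbered 4 and 5 gave 65, of which 38 were members. Leaving out each library in turn gave 41 to 59 transcripts, the highest without hypothalamus replicate 1 of PN2, and 11 to 21 with 1 skin library above 50% (20 and 21 without skin replicates 4 and 5, and 21 without that hypothalamus library). The 3 members lower in hippocampus than in hypothalamus at PN7 were 1 with only the groups compared, where 22 members passed the filter, and 6 with limma voom. The 3 higher members were 2 to 4 in all fits. With the replicate block 3 were higher and 3 lower. The libraries share replicate numbers, but of 29 same-numbered pairs of libraries from different groups 7 correlated above 0.1 in their deviations (mean r of 0.0437), among them all 3 pairs numbered 4 (r of 0.164 to 0.270). Of 98 pairs with different numbers 11 did (mean r of -0.0124), which is a smaller share. The other 22 same-numbered pairs did not, and the numbers are not taken to pair the samples, though these correlations do not settle it. The PN7 groups share only number 1. The lone hypothalamus library of PN7 cannot be left out. DESeq2 gave no adjusted p for member 15.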
